A study of Mus musculus with 12 samples.

Results

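The genes described here are the core families of splicing and RNA-binding factors: the SR proteins (Srsf), the heterogeneous nuclear ribonucleoproteins (Hnrnp), the small nuclear ribonucleoprotein components (Snrp), the subunits of splicing factors 3a and 3b (Sf3a and Sf3b), the U2 auxiliary factors (U2af) and the pre-mRNA processing factors (Prpf). They were picked out by symbol, as every row of the count table named by one of these stems followed by its family's letters or digits, which gave 68 of 24421 genes: 20 Hnrnp, 13 Prpf, 12 Snrp, 11 Srsf, 9 Sf3a or Sf3b and 3 U2af genes. Of these 68 genes, 35 had at least 10 counts in at least 3 of the 12 libraries and were taken as the measurable ones, described below together with a few sparse members whose counts are given. Total RNA of SMCCs, an immortalized line of mouse small cholangiocytes, was sequenced after transfection, with 3 libraries for each of 4 groups. In the silencing arm, SMCCs received a control siRNA (si-CTL) or an siRNA against β-catenin (si-Ctnnb1) with Lipofectamine RNAiMAX for 24 hr. In the activation arm, they received an eGFP plasmid (eGFP) or a plasmid for the stable β-catenin mutant S45Y (S45Y) with Lipofectamine 3000 for 48 hr. All groups share the cell line, so the libraries stand for 1 immortalized line under transient transfection, in which cells that took up no siRNA or plasmid remain in the sample. The labels do not say that the 3 libraries of a group came from separate cultures, so p-values measure the spread between these libraries, which may be technical.

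Introns are removed from a transcript by the spliceosome, a machine built from small nuclear RNAs and their bound proteins. The U1 particle marks the start of the intron, U2AF reads the pyrimidine-rich end, and the U2 particle with its SF3a and SF3b complexes settles on the branch point, after which the remaining particles join with the help of the Prpf proteins. SR proteins mostly favour the use of nearby exons and hnRNPs often oppose it, so that the balance of both groups sets many choices of alternative exons. In the biliary epithelium, as in other tissues, these genes are broadly expressed.

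The libraries were shallow. Totals lay between 221767 and 326686 counts in the siRNA groups and between 91468 and 122304 in the plasmid groups. Rn45s, the ribosomal RNA precursor, made up 12.6% ± 2.69 of an eGFP library and 12.9% ± 2.47 of an S45Y library, against 4.31% ± 1.03 for si-CTL and 2.15% ± 0.463 for si-Ctnnb1 (SD, n = 3 each). Ctnnb1 itself had 13, 38 and 28 counts with si-CTL and 0, 11 and 3 with si-Ctnnb1, which fell by 2.54 on the log2 scale (SE 0.55, adjusted p = 0.00491). Its 6, 11 and 10 counts with eGFP and 11, 4 and 18 with S45Y overlapped (adjusted p = 0.989). Of 10 cholangiocyte markers, 8 had counts, led by Krt18 with 1150, and Epcam and Cftr were at 0. Summed over the list, they came to 1018 to 1429 CPM (counts scaled to the TMM-corrected total of the genes that passed the filter over all 12 libraries) in si-CTL, 876 to 1000 with si-Ctnnb1, 1561 to 2178 with eGFP and 1750 to 2219 with S45Y. Of the other lists, Alb, Apoa1 and Ttr of hepatocytes, Col1a2 of fibroblasts, Ptprc and Adgre1 of leukocytes and Pecam1 of endothelium were at 0 throughout. Hnf4a had 35 counts in all, which with Cps1 brought the hepatocyte list to at most 35.8 CPM in a library, and Dcn, Pdgfrb and Col1a1 had 5, 4 and 2 counts, with at most 55.1 CPM for their list in 1 eGFP library. Kdr and Cdh5 of endothelium had 1 and 6 counts. The macrophage genes Cd68 and Csf1r had 174 and 55 counts in all, and the summed macrophage and leukocyte list lay between 31.3 and 135 CPM in single libraries. In these bulk samples, fewer cells of a type and less RNA per cell cannot be told apart.

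The 68 genes together held 27018 of 2424120 counts (1.11%), and their share ranged from 0.959% to 1.20% of a library. They were very uneven. Prpf39, Prpf38b, Hnrnpu, Hnrnpab and Srsf4 held 18254 counts, or 67.6% of the total for all members, while 15 members had 20 counts or fewer over the 12 libraries. By family, the Prpf genes held 12670 counts (46.9%), the Hnrnp genes 9065 (33.6%), the Srsf genes 3503 (13.0%), the Sf3 genes 1019 (3.77%), the Snrp genes 506 (1.87%) and the U2af genes 255 (0.944%). The first place of the Prpf family rests on Prpf39, with 6312 counts, and Prpf38b, with 5041. Several members known as abundant nuclear proteins had very few counts in the table. This does not show that their transcripts are rare, since the annotation and strand setting behind the counts are not given. Hnrnpa1, a main packaging protein of nascent transcripts, had 4 counts in all and its close relative Hnrnpa3 had 2. U2af1, the small subunit of U2AF, had 16 counts against 221 for U2af2, its large subunit. Srsf12 and Snrpn had no count in any library, which allows up to 3 counts per library and covers counting error only.

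**Figure D1:**
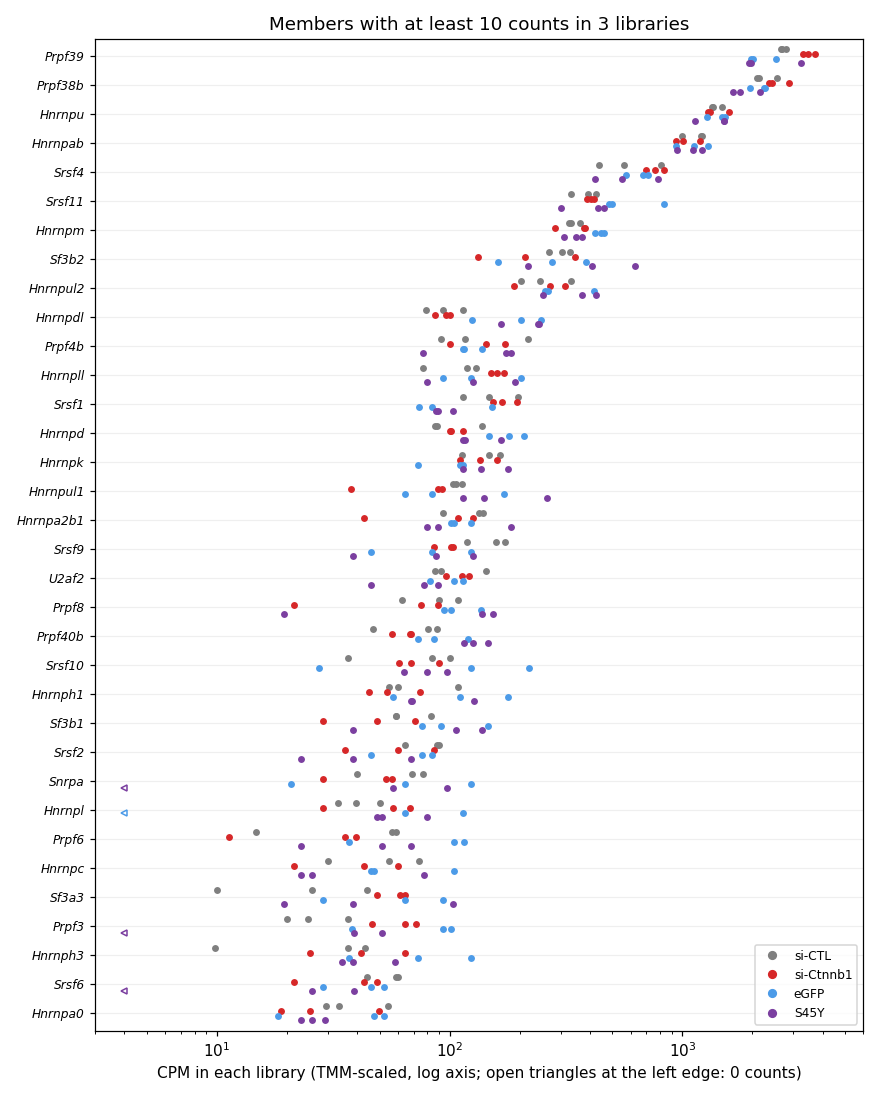
Level of measurable members in each library, in TMM-scaled CPM on a log axis, with one point per library coloured by group and open triangles for a count of 0. Prpf39 and Prpf38b lie at the top with all libraries at 1643 CPM or above, and the spread between libraries widens toward the members with few counts.

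Divided by the union of annotated exons, the order of levels changed. On the RPKM scale, which divides CPM by exon length in kilobases, Hnrnpab had the highest mean over the 12 libraries with 394, ahead of Prpf38b with 318, Prpf39 with 225, Srsf4 with 183 and Hnrnpu with 121. Srsf9 and Srsf11 followed with 62.7 and 52.9, but this order of means was not the same in each group. With eGFP, Srsf11 (71.6) lay above Srsf9 (50.9) and Srsf4 (183.8) just above Prpf39 (181.2), and with S45Y, Sf3b2 (61.0) lay above both Srsf9 and Srsf11. These neighbours were not tested against each other. Sf3b1, the largest subunit of SF3b and the one that grips the branch point region, had a mean of 6.93 RPKM, below Sf3b2 of the same complex with 44.7.

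Family sums were largest for Prpf and Hnrnp in every group. The Prpf share of all counts was 0.511% ± 0.0124 with si-CTL, 0.592% ± 0.0410 with si-Ctnnb1, 0.446% ± 0.0307 with eGFP and 0.437% ± 0.107 with S45Y (SD, n = 3 each). Every si-Ctnnb1 library lay above every si-CTL library in this sum, while the S45Y libraries spanned the eGFP ones. Both plasmid against siRNA comparisons were separated too, with every eGFP library below si-CTL and every S45Y library below si-Ctnnb1. The sum follows Prpf39 and Prpf38b, whose means went from 2712 to 3501 CPM and from 2262 to 2554 CPM between si-CTL and si-Ctnnb1. Among the 8 Prpf genes tested in silencing, 5 had a fold change below 0 and the median was -0.04 on the log2 scale. The Hnrnp share was 0.377% ± 0.00182 with si-CTL, 0.356% ± 0.0102 with si-Ctnnb1, 0.400% ± 0.00774 with eGFP and 0.389% ± 0.0114 with S45Y. Here the si-Ctnnb1 libraries all lay below the si-CTL ones and the eGFP libraries all lay above the si-CTL ones. The S45Y libraries all lay above the si-Ctnnb1 ones and overlapped the eGFP ones. The means were closer together than for Prpf. For the Srsf family the means were 0.1414%, 0.1499%, 0.1509% and 0.1247% in the same order. The S45Y libraries all lay below the si-Ctnnb1 ones in this sum, while the groups overlapped in the other 3 comparisons. These sums were not tested, and how often sums of other genes separate in this way was not counted.

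**Figure D2:**
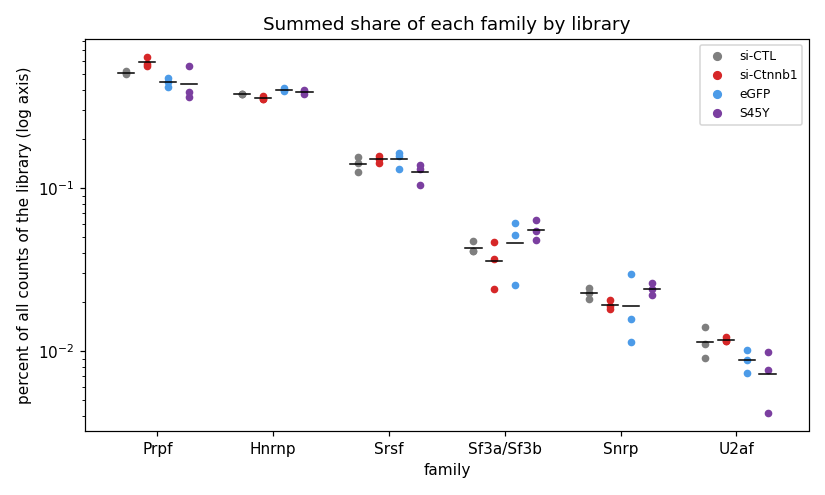
Summed share of each family in each library, in percent of all counts on a log axis, with points for libraries and a bar for the mean of each group of 3. The Prpf share is higher in the 3 si-Ctnnb1 libraries (mean 0.592%) than in the 3 si-CTL libraries (mean 0.511%), and the S45Y libraries are spread widely in this family.

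The si-Ctnnb1 libraries were set against si-CTL and the S45Y libraries against eGFP, the question being which transcripts respond to loss or gain of β-catenin. After silencing, 34 members were tested, all measurable ones except Hnrnpa0, and 1 of them, Prpf39, passed at an adjusted p below 0.05 with a higher level. Over all genes, 54 of 3484 passed (1.55%). At an unadjusted p below 0.05 there were 4 members, 3 higher and 1 lower, beside 436 of all genes (12.5%). Of the 3 higher, Prpf3 and Sf3a3 were low with si-CTL and could reach the filter mainly through si-Ctnnb1, so nothing is read from the split of directions. The median log2 fold change of the members was -0.04, beside -0.00 for all genes tested, and it lay between -0.097 and 0.0025 with each library left out. After activation, 21 members were tested and 0 passed, as did 0 of 1819 genes in the table (0%). DESeq2 also called 0 members and 0 genes there. At an unadjusted p below 0.05 there were 1 higher and 1 lower member, beside 107 of all genes (5.88%), and the medians were -0.01 for members and 0.02 for all genes. With each library left out, that of the members lay between -0.13 and 0.037, on either side of 0. The difference between activation and silencing was itself tested in one fit of the 12 libraries. None of 32 members tested passed, while 16 of 2996 genes in the table did. Of the members, 5 had an unadjusted p below 0.05, beside 296 of those 2996 genes, and the largest difference among these was in Prpf3 (-2.50, SE 0.96, adjusted p = 0.298).

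**Figure D3:**
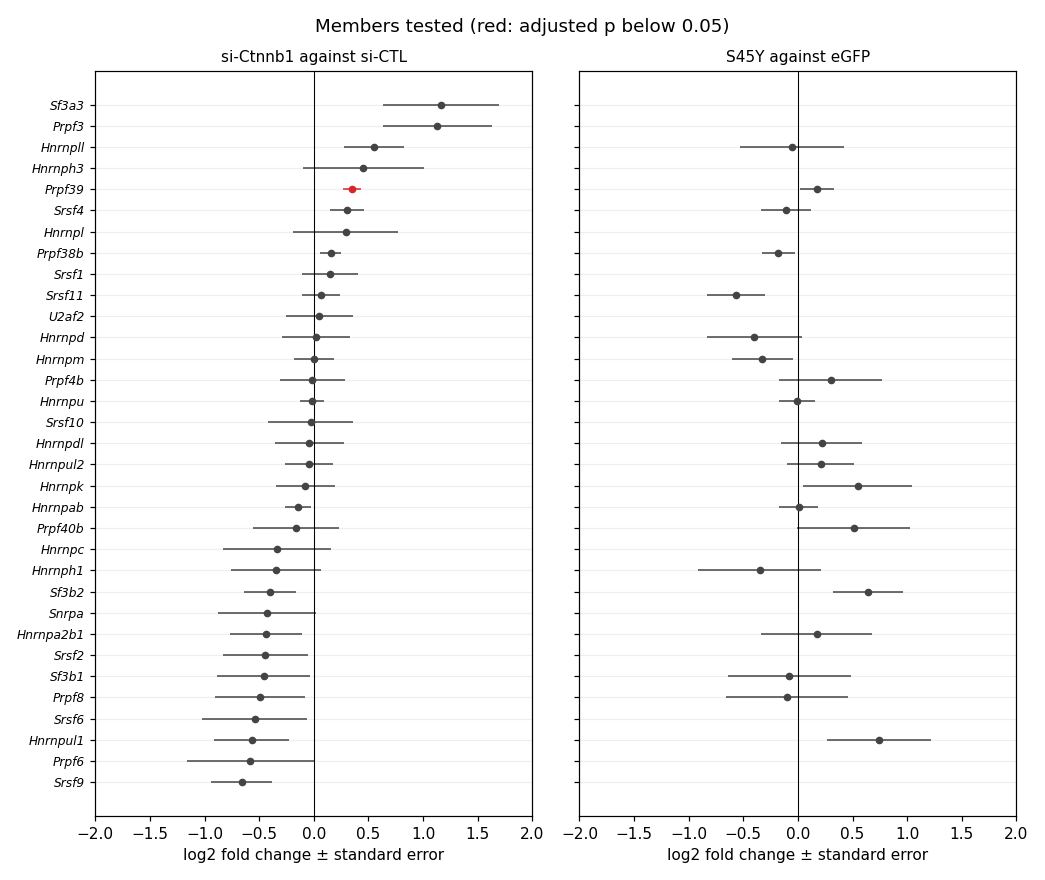
Log2 fold change with its standard error for members tested, in si-Ctnnb1 against si-CTL on the left and S45Y against eGFP on the right. Prpf39 (0.35) is the only point past an adjusted p of 0.05, and members with few counts carry the long error bars on both sides of 0.

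The plasmid and siRNA libraries were also compared directly, which the study did not do. For eGFP against si-CTL, 27 members were tested and 2 passed, Srsf11 and Hnrnpdl, both higher in eGFP, where 415 of 2459 genes of the table passed (16.9%). At an unadjusted p below 0.05 there were 3 higher and 2 lower members, beside 719 of all genes (29.2%). For S45Y against si-Ctnnb1, a comparison added after the data were seen, 29 members were tested and 5 passed, with Hnrnpdl, Hnrnpul1 and Sf3b2 higher and Prpf39 and Prpf38b lower in S45Y. Over all genes, 557 of 2702 passed (20.6%), and 851 had an unadjusted p below 0.05 (31.5%), against 4 higher and 3 lower members. The median fold change of the members was 0.13 between the controls and 0.09 between the treated groups, beside 0.01 and 0.02 for all genes. DESeq2 gave the reverse order, with 0.10 and 0.06 for members beside 0.22 and 0.24 for all genes. In both comparisons the reagent, the duration, the nucleic acid delivered and the depth change together and cannot be told apart, and neither isolates β-catenin.

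**Figure D4:**
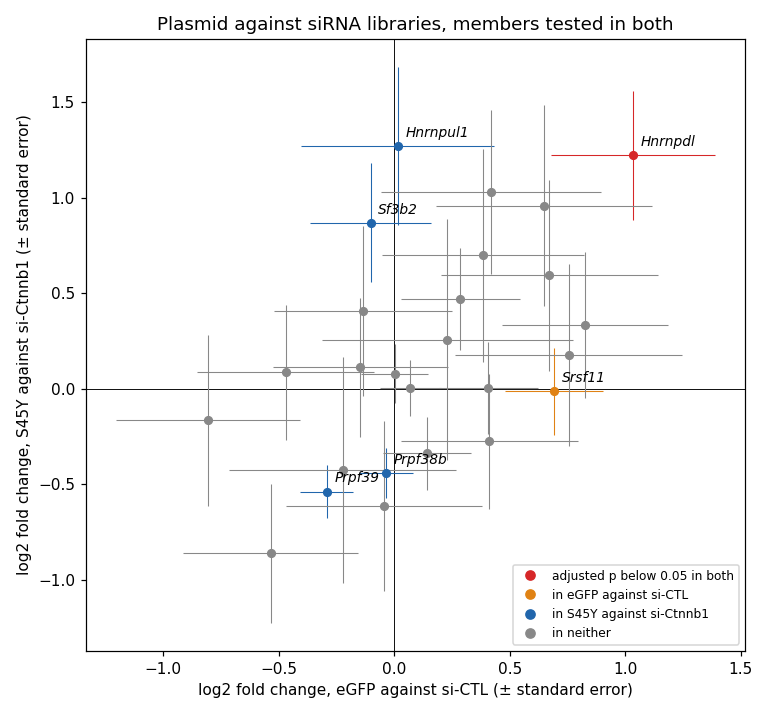
Log2 fold change with its standard error for members tested in both plasmid against siRNA comparisons, with eGFP against si-CTL on the x axis and S45Y against si-Ctnnb1 on the y axis. Hnrnpdl passed in both (1.03 and 1.22), Srsf11 only on the x axis, and Prpf39, Prpf38b, Hnrnpul1 and Sf3b2 only on the y axis.

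The 2 plasmid against siRNA comparisons share no library. Over the 27 members tested in both, the fold changes had the same sign for 19 (70.4%), beside 71.8% of 2318 genes in the table. Pearson's r across these 27 members was 0.50 and Spearman's rho 0.48, against r = 0.64 and rho = 0.60 over all genes, which are not independent replicates. Passing in one of these comparisons and not in the other does not show a difference between them, and the test of that difference is the one of the 12 libraries given above, since both ways of subtracting give the same quantity.

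Prpf39, a component linked to the U1 particle, carried the one call of the silencing arm. The gene lies on chromosome 12 of mm10 (chr12:65036333-65063386, forward strand). Its counts were 544, 840 and 727 with si-CTL, 880, 1043 and 972 with si-Ctnnb1, 213, 215 and 241 with eGFP, and 151, 282 and 204 with S45Y. All si-Ctnnb1 libraries lay above all si-CTL libraries once scaled, with 3501 CPM ± 204 against 2712 ± 74.6 (SD, n = 3 each). This was a 1.27-fold rise (log2 fold change 0.35, SE 0.08, adjusted p = 0.0164). The call was lost without si-CTL library 1 (adjusted p = 0.0571), si-CTL library 3 (0.0665), si-Ctnnb1 library 2 (0.130) or si-Ctnnb1 library 3 (0.0688), and in one fit of all 12 libraries (0.159), although the fold change stayed between 0.31 and 0.39. Rn45s differed between the same groups, and with it left out of the totals the adjusted p of Prpf39 was 0.0103. In the plasmid arm the levels were 2169 CPM ± 301 with eGFP and 2376 ± 737 with S45Y, where S45Y library 2 stood above the other two S45Y libraries and the groups overlapped (log2 fold change 0.17, adjusted p = 0.989).

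Against the siRNA libraries, Prpf39 was lower in S45Y than in si-Ctnnb1 (log2 fold change -0.54, SE 0.14, adjusted p = 0.00484), with no overlap between the groups. Without S45Y library 2 the fold change was -0.91 (adjusted p = 5.07e-06), and DESeq2 gave -0.65 with an adjusted p of 0.0714. Between the controls, the fold change of eGFP against si-CTL was -0.29 (SE 0.12, adjusted p = 0.0752), which passed under DESeq2 (0.00409), with library totals in place of TMM (0.0216), without a filter on low counts (5.31e-04) and without eGFP library 3 (0.00590).

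For Prpf39, Srsf11 and Hnrnpdl, the members that passed in silencing or between the controls, the promoter windows of RefSeq on GRCm38.p6 are given from 250 bases before to 50 bases after the RefSeq start, 5′ to 3′ on the strand of the gene, so that the sequence near the start can be seen beside the values. Capitals mark CACGTG, the palindromic E-box read by basic helix-loop-helix factors such as Myc, a motif looked for after the Prpf39 window had been read.
Prpf39 (chr12:65036084-65036383, forward strand): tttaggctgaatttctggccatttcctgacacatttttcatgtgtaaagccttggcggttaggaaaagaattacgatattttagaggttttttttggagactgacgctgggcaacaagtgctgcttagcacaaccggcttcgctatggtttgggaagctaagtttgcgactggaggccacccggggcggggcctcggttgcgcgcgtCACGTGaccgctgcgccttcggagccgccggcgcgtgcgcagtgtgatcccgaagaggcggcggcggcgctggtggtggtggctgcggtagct
Srsf11 (chr3:158036557-158036856, reverse strand): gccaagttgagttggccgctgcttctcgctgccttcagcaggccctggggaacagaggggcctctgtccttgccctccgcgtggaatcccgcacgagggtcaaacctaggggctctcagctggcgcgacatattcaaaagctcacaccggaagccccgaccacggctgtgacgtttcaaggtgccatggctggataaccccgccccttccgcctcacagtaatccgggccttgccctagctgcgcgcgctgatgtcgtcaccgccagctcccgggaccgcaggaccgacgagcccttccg
Hnrnpdl (chr5:100039173-100039472, reverse strand): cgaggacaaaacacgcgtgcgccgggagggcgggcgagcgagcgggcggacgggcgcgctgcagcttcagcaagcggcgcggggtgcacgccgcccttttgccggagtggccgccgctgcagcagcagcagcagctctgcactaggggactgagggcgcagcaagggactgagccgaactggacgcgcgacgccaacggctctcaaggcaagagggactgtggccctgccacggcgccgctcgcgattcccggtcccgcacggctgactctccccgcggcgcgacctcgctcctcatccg

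The E-box of the Prpf39 window begins 43 bases before the RefSeq start, and the windows of Srsf11 and Hnrnpdl hold none. Of 59 members with a promoter in that table, 8 held CACGTG (13.6%), beside 1957 of 27025 promoters (7.24%). Prpf39, from whose window the motif was taken, is among these 8. CACGTG also holds a CpG, and members' windows have more of these, so nothing is read from the difference. The letters CTTTGA or CTTTGT, the core read by the TCF partners of β-catenin, were searched on both strands and were found in 0 places of these 3 windows, in 14 of the 59 members (23.7%) and in 8453 of all promoters (31.3%). Members' windows were rich in G and C, with a median of 60.0% and 25 CpG dinucleotides, against 52.7% and 7 for all. A match of letters is no binding site, and its absence says nothing of the factor.

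Prpf38b, a relative of a yeast tri-snRNP protein, was the second member by counts, at 435, 628 and 698 with si-CTL, 624, 809 and 680 with si-Ctnnb1, 240, 213 and 215 with eGFP, and 129, 188 and 182 with S45Y. Its level of 2554 CPM ± 287 with si-Ctnnb1 overlapped that of 2262 ± 255 with si-CTL (log2 fold change 0.15, adjusted p = 0.551), and S45Y at 1853 ± 265 overlapped eGFP at 2157 ± 175 (-0.18, adjusted p = 0.988). It passed only in S45Y against si-Ctnnb1, where the groups did not overlap (-0.44, SE 0.13, adjusted p = 0.0137). Without si-Ctnnb1 library 2 this value was -0.30 with an adjusted p of 0.165.

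Prpf3, a protein of the U4/U6 particle, had 5, 6 and 10 counts with si-CTL and 17, 13 and 20 with si-Ctnnb1, without overlap. Its log2 fold change of 1.13 (SE 0.50) had an unadjusted p of 0.0291 and did not pass after adjustment (0.312), in a test it could enter mainly through the group where it is high. At 4, 11 and 9 counts with eGFP and 4, 0 and 4 with S45Y it was below the filter in the plasmid comparisons. Prpf8, the large protein at the heart of the spliceosome, had 177 counts in all and no adjusted p below 0.05 in any comparison. The same held for Prpf4b, a kinase of splicing factors, with 296 counts. Prpf6, which bridges the tri-snRNP, had 96 counts and was tested only in silencing (adjusted p = 0.773). Prpf40b, a relative of the yeast U1 protein Prp40, was higher in S45Y than in si-Ctnnb1 by 1.03 without passing (adjusted p = 0.0868), with 128.6 CPM ± 15.5 against 64.0 ± 6.62, and it passed with a minimum count of 20 (1.14, adjusted p = 0.0166). Of 8 Prpf members tested in silencing, 1 passed, and of 6 tested in each of the other comparisons 0 passed in activation, 0 between the controls and 2 between the treated groups. The shares of all genes were 1.55% in silencing, 0% in activation, 16.9% and 20.6%.

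Among the SR proteins, Srsf4 and Srsf11 had the most counts. Srsf4 counts were 89, 169 and 222 with si-CTL, 186, 213 and 233 with si-Ctnnb1, 75, 74 and 55 with eGFP, and 33, 48 and 81 with S45Y. The si-CTL libraries spread widely, at 604 CPM ± 191, and overlapped the si-Ctnnb1 ones at 764 ± 67.5 (log2 fold change 0.31, SE 0.16, adjusted p = 0.415). Srsf4 passed in none of the other comparisons (adjusted p of 0.223 or higher). In S45Y against si-Ctnnb1, where the fold change was -0.34, it passed without a filter on low counts (-0.66, adjusted p = 0.0206) and without S45Y library 3 (-0.69, adjusted p = 0.0354).

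Srsf11, an SR-related protein that works with the 3′ splice site machinery, had 86, 100 and 107 counts with si-CTL, 108, 109 and 116 with si-Ctnnb1, 51, 54 and 80 with eGFP, and 36, 38 and 31 with S45Y. It was steady between the siRNA groups, at 383 CPM ± 45.7 and 403 ± 13.7 (log2 fold change 0.06, adjusted p = 0.930). In eGFP it reached 604.5 CPM ± 200, with library 3 well above libraries 1 and 2, and all 3 lay above si-CTL. The difference between the controls was 1.61-fold (0.69, SE 0.21, adjusted p = 0.0159). Without eGFP library 3 it was 0.34 with an adjusted p of 0.398, and without si-CTL library 2 the adjusted p was 0.0951, and the call was also lost under DESeq2 (0.0837) and without a filter (0.457). S45Y, at 398 CPM ± 85.3, lay below every eGFP library, with an unadjusted p of 0.0340 that did not pass after adjustment (-0.57, SE 0.26, adjusted p = 0.792), and without eGFP library 3 it was -0.30. S45Y and si-Ctnnb1 differed by -0.01 (adjusted p = 0.976).

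Srsf9, a small SR protein with a short arginine- and serine-rich tail, had 24, 52 and 43 counts with si-CTL and 27, 29 and 24 with si-Ctnnb1. Its scaled levels did not overlap, at 149.5 CPM ± 28.4 and 96.9 ± 9.57, yet the log2 fold change of -0.66 (SE 0.28, unadjusted p = 0.0236) did not pass after adjustment (0.279). Its 13, 5 and 8 counts with eGFP and 3, 11 and 9 with S45Y were too few for a test in the plasmid arm. For eGFP against si-CTL the fold change was -0.81 (SE 0.40, unadjusted p = 0.0481, adjusted p = 0.166). It was -1.25 without eGFP library 1 and -0.54 without eGFP library 2. Srsf1, the founding member that also acts in nuclear export, had 319 counts, and its unadjusted p of 0.0237 in S45Y against si-Ctnnb1 (-0.86) became 0.0928 after adjustment. The remaining SR proteins were sparse, with 176 counts for Srsf10, 147 for Srsf2, 92 for Srsf6, 63 for Srsf3, 40 for Srsf5 and 24 for Srsf7. Over the family, 0 of 7 tested members passed in silencing, 0 of 2 in activation, 1 of 6 between the controls (16.7%) and 0 of 6 between the treated groups, beside 1.55%, 0%, 16.9% and 20.6% of all genes.

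Of the hnRNPs, the largest family, 0 of 14 tested members passed in silencing and 0 of 11 in activation. At an unadjusted p below 0.05 the count was also 0 in both, beside 12.5% and 5.88% of all genes, and DESeq2 called 0 of them. Hnrnpu, a nuclear scaffold protein, had 275, 401 and 405 counts with si-CTL, 421, 362 and 366 with si-Ctnnb1, 161, 139 and 142 with eGFP, and 119, 132 and 117 with S45Y. Its group means lay between 1387 and 1428 CPM, and its log2 fold changes lay between -0.02 and 0.07 in the 4 comparisons. Hnrnpab, a member of the A/B type, had group means from 1044 to 1138 CPM, a log2 fold change of -0.14 in silencing and no adjusted p below 0.714. The group spreads of these 2 genes overlapped throughout, so no order of the groups can be read from them. Hnrnpm, which binds G- and U-rich stretches, had 66, 109 and 91 counts with si-CTL, 101, 106 and 79 with si-Ctnnb1, 47, 46 and 44 with eGFP, and 29, 27 and 36 with S45Y. The plasmid groups did not overlap once scaled, and the fold change of -0.33 did not pass (SE 0.28, adjusted p = 0.988). Its exons share 1169 bases with March2 on the same strand, so reads there cannot be told apart.

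Hnrnpdl, a relative of Hnrnpd that binds AU-rich RNA, separated the plasmid from the siRNA libraries. It had 16, 28 and 31 counts with si-CTL, 23, 27 and 28 with si-Ctnnb1, 26, 22 and 12 with eGFP, and 13, 21 and 25 with S45Y. Scaled to depth, both plasmid groups lay above both siRNA groups, with 95.1 CPM ± 17.5 with si-CTL, 94.3 ± 7.07 with si-Ctnnb1, 191 ± 61.2 with eGFP and 216 ± 43.7 with S45Y. Between the controls the difference was 2.05-fold (log2 fold change 1.03, SE 0.36, adjusted p = 0.0354), and between the treated groups 2.34-fold (1.22, SE 0.34, adjusted p = 0.00763). Within each arm it was flat, at -0.04 for silencing (adjusted p = 0.981) and 0.22 for activation (0.989). The call between the controls was lost without eGFP library 1 (adjusted p = 0.255), eGFP library 2 (0.115), si-CTL library 1 (0.104) or si-CTL library 2 (0.0930). It was also lost without a filter on low counts (0.75, adjusted p = 0.422), under DESeq2 (0.107), with library totals in place of TMM (0.0554) and with the replicate block (0.0631). The call between the treated groups was lost without S45Y library 2 (0.0536) or S45Y library 3 (0.0687), and without a filter on low counts (0.174). Hnrnpd, with 255 counts, also had higher levels in eGFP than in si-CTL without overlap, but its fold change of 0.83 did not pass (SE 0.36, adjusted p = 0.108).

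Hnrnpul1, a relative of Hnrnpu with a part in DNA repair, had 21, 34 and 29 counts with si-CTL, 10, 25 and 26 with si-Ctnnb1, 18, 7 and 8 with eGFP, and 11, 10 and 27 with S45Y. The S45Y libraries, at 172 CPM ± 78.6, all lay above the si-Ctnnb1 ones at 73.2 ± 30.9 (log2 fold change 1.27, SE 0.42, adjusted p = 0.0241). Neither arm passed on its own, with -0.57 in silencing (adjusted p = 0.536) and 0.75 in activation (0.944). The activation value was 0.26 without S45Y library 3, 0.47 without eGFP library 2 and 1.26 without eGFP library 1. The call was lost without S45Y library 3 (0.75, adjusted p = 0.381), S45Y library 1 (0.0599) or si-Ctnnb1 library 1 (0.0928), and under DESeq2 (0.0590) and without a filter (0.231). In all, 1 of 11 hnRNP members passed between the controls, beside 16.9% of all genes, and 2 of 12 between the treated groups, beside 20.6%. These were Hnrnpdl in both and Hnrnpul1 in the latter.

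The other measurable hnRNPs had between 608 counts over the 12 libraries for Hnrnpul2 and 74 for Hnrnpa0, with 296 for Hnrnpll, 240 for Hnrnpa2b1, 161 for Hnrnph1, 109 for Hnrnpl and 105 for Hnrnpc. Hnrnpll, a regulator of Ptprc exons in lymphocytes, came nearest to a change in silencing. It had 24, 39 and 21 counts with si-CTL and 40, 45 and 48 with si-Ctnnb1, without overlap once scaled, and its fold change of 0.55 did not pass (SE 0.27, unadjusted p = 0.0505, adjusted p = 0.399). Hnrnpa2b1, an abundant relative of Hnrnpa1, had group means between 92.4 and 122 CPM, and none of its comparisons passed (adjusted p of 0.571 or higher).

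The U2 proteins were read mainly through Sf3b2, a subunit of SF3b that contacts the RNA beside the branch point. Sf3b2 had 67, 80 and 83 counts with si-CTL, 92, 59 and 37 with si-Ctnnb1, 17, 30 and 37 with eGFP, and 49, 19 and 42 with S45Y. The spread within groups was large, with 300.0 CPM ± 31.8, 229.5 ± 108, 274 ± 113 and 416 ± 204 in the same order, and the groups overlapped in every comparison. Its exons overlap those of AC125059.3 on the opposite strand by 194 bases. Its fold change was -0.40 in silencing (SE 0.24, adjusted p = 0.516) and 0.64 in activation (SE 0.32, unadjusted p = 0.0495, adjusted p = 0.841). In silencing it was -0.12 without si-Ctnnb1 library 3 and -0.81 without si-Ctnnb1 library 1, and in activation 0.23 without S45Y library 1 and 0.35 without eGFP library 1, up to 0.93 without S45Y library 2, with no adjusted p below 0.05. It passed only for S45Y against si-Ctnnb1 (0.87, SE 0.31, adjusted p = 0.0418), and there not without S45Y library 1 (0.40, adjusted p = 0.538), S45Y library 3 (0.146) or si-Ctnnb1 library 3 (0.163), nor under DESeq2 (0.418) or without a filter (0.344). Without si-Ctnnb1 library 1 the value was 1.33 (adjusted p = 0.00147). Sf3a3, a subunit of SF3a, had 9, 3 and 7 counts with si-CTL and 13, 18 and 17 with si-Ctnnb1, without overlap, and its fold change of 1.17 (SE 0.53, unadjusted p = 0.0351) did not pass after adjustment (0.340). Its si-CTL counts were all under 10, so it entered the test through si-Ctnnb1, where it was high, and this direction is no evidence of a change. Sf3b1 had 152 counts and passed nowhere.

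U2af2 had 29, 26 and 25 counts with si-CTL and 30, 34 and 27 with si-Ctnnb1, and these groups overlapped (log2 fold change 0.05, SE 0.31, adjusted p = 0.975). With eGFP it had 12, 9 and 10 counts, and its 7, 4 and 8 counts with S45Y gave a level below each si-Ctnnb1 library, which did not pass (-0.61, adjusted p = 0.360). Of the Snrp family, only Snrpa, the U1 protein that binds a stem loop of U1 RNA, could be tested in any comparison but activation, and it gave no adjusted p below 0.785. Its counts were 14, 12 and 21 with si-CTL, 15, 15 and 8 with si-Ctnnb1, 13, 7 and 2 with eGFP, and 0, 5 and 10 with S45Y, so that the groups overlapped throughout. The Sm proteins that form the ring shared by most of these particles were sparser still. Snrpd1 had 77 counts in all, Snrpb 64, Snrpd3 59, Snrpf 37, Snrpd2 23, Snrpe 13 and Snrpg 5, and none of these genes passed the filter for a test.

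Several members share part of their exons with a gene on the opposite strand. Whether HTSeq was run with strand is not given in the sources used here, and without strand the reads of overlapping genes cannot be told apart. With strand set the wrong way, the counts of any member would be reads from the opposite strand. The setting was not tested, and the levels and shares given here depend on it. In GENCODE M21, on the same build, 23 of the 68 members (33.8%) overlap exons annotated on the other strand, beside 24.1% of the genes of the table found in that annotation, and they hold 58.6% of the members' counts, wherever in the gene those counts fall. In 15 pairs both genes are in the table, covering 13 members, and the partner had more counts than the member in 9 pairs. The partners held 41979 counts in all and the members 14054. Prpf39 overlaps Fkbp3 by 599 of its 11967 exon bases, and Fkbp3 had 413 counts with a fold change of -0.08 in silencing (SE 0.24, adjusted p = 0.943). Hnrnpu had 3040 counts beside 2738 for Cox20, and Hnrnpab 2383 beside 2159 for Phykpl, 2 pairs of nearly equal counts.

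Other members were far below their partners. Srsf4 had 1478 counts against 10192 for Gm12992, with which it shares 1532 bases, and Gm12992 rose in silencing by 0.34 (SE 0.08, adjusted p = 0.00654). Hnrnpk, a poly(C)-binding protein, had 290 counts against 5522 for Rmi1, which rose by 0.39 (SE 0.09, adjusted p = 0.00666), while the fold change of Hnrnpk was -0.08 (adjusted p = 0.951). Hnrnph3 had 97 counts beside 6987 for Rufy2, and Snrpf 37 beside 10116 for Ccdc38. Prpf38b, Srsf11, Hnrnpdl and Hnrnpul1 overlap no exon on the other strand. Over the members without such overlap, 0 of 21 passed in silencing, 0 of 13 in activation, 2 of 16 between the controls (12.5%) and 3 of 17 between the treated groups (17.6%). Over all genes these shares were 1.55%, 0%, 16.9% and 20.6%.

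**Figure D5:**
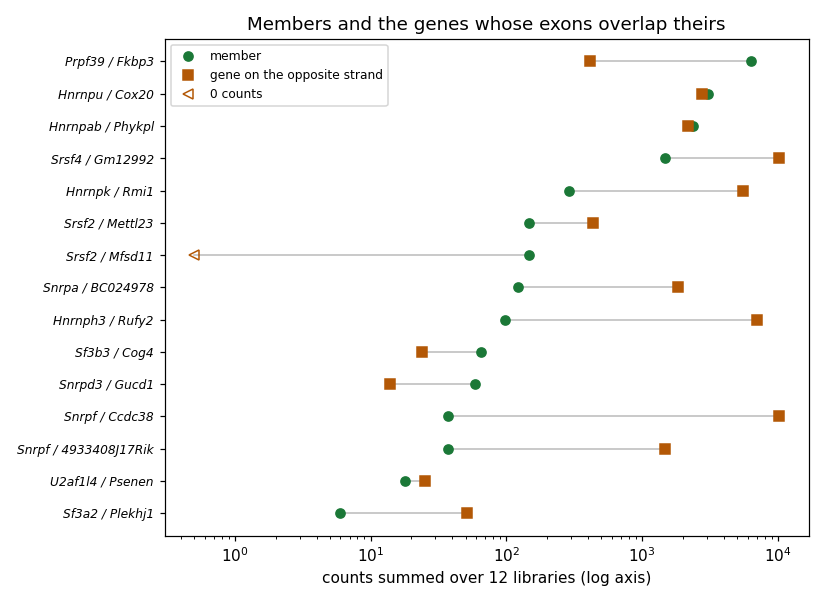
Counts summed over the 12 libraries, on a log axis, for each member (circle) and the gene whose exons overlap it on the opposite strand (square), with an open triangle for 0 counts. The partner lies to the right of the member in 9 of 15 pairs, furthest for Snrpf and Ccdc38 (37 and 10116 counts), while Prpf39 lies well above Fkbp3 (6312 and 413).

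The wider splicing machinery was read from 97 other genes (SR-like coactivators, further spliceosome proteins, kinases, other regulators and exon junction proteins), all present in the table. In silencing 50 were tested and 1 passed, where 1.55% of all genes did. It was Srpk2, a kinase that phosphorylates SR proteins, at 82, 153 and 117 counts with si-CTL and 62, 68 and 60 with si-Ctnnb1. Srpk2 fell by 0.98 on the log2 scale (SE 0.19, adjusted p = 0.00102), and its exons overlap Kmt2e on the opposite strand by 972 bases. At an unadjusted p below 0.05, 5 of the 50 were higher and 6 lower in silencing, beside 12.5% of all genes. In activation 0 of 38 passed, beside 0% of all genes, 2 had an unadjusted p below 0.05, beside 5.88% of all genes, and DESeq2 called 0 genes of the whole table. Between the controls 42 were tested and 2 passed, where 16.9% of all genes did. Pcbp2, a poly(C)-binding protein, was higher (0.72, SE 0.21, adjusted p = 0.0125) and Acin1, a partner of the exon junction complex, lower in eGFP (-0.62, SE 0.16, adjusted p = 0.00435). Between the treated groups 45 were tested and 5 passed, where 20.6% of all genes did. Srpk2 (1.28), Ewsr1 (1.27), Srrm1 (1.21) and Pcbp2 (0.62) were higher and Acin1 (-0.69) lower in S45Y, with adjusted p-values between 2.10e-04 and 0.0482. On the opposite strand, Pcbp2 overlaps Map3k12 by 1573 bases, Acin1 overlaps 1700123O20Rik by 463 and Ewsr1 overlaps Rhbdd3 by 258. Unlike those of the members, the single calls of these other genes were not rechecked with other settings or with libraries left out.

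The genes whose pattern over the 12 libraries was most like that of Prpf39 were Gm5148 (Pearson's r = 0.918), Sox4 (0.916) and Mroh8 (0.913), among 1019 genes with at least 10 counts in every library, for which the median r was 0.063. These values are a description of log2 CPM over libraries of unequal depth in 4 groups and carry no test.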

How the data were processed

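RNA-seq counts of 12 SMCC libraries were used, 3 in each of 4 groups set by the labels. The deposited values are whole-number counts per gene symbol, not normalized and with replicates kept apart. The authors checked reads with FastQC, filtered them with Trimmomatic (0.38), aligned them to mm10 with HISAT2 (2.1.0) and counted them with HTSeq (0.11.2), with versions from the submitters' processing notes. The annotation and strand setting behind the counts are not given in the sources used here, so overlapping genes may share or lose reads. The levels of all members depend on that setting.

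Tests used edgeR 4.0.16 (R 4.3.3). In each comparison of 6 libraries, sparse genes were removed by filterByExpr at a minimum count of 10 and a minimum total of 15, totals were scaled by TMM and the quasi-likelihood test was run, and adjusted p-values are Benjamini-Hochberg values over all genes tested. The filter asks for its minimum in 3 libraries, so a gene can enter through one group alone. Members and gene lists were chosen with earlier results of these data known, and no test was made of the list as a whole. Named members had at least 10 counts in 3 libraries. One of them is not reported here by name or in the plots, but is part of the counts and medians. Values per library were given for those past an adjusted p of 0.05, for the 2 with the smallest p in each direction, and for the highest-count member of each family. Further sparse members were chosen after their values were seen. S45Y against si-Ctnnb1 and the difference between arms were added after seeing the data. Exon lengths and overlaps came from GENCODE M21 and promoters from RefSeq (GRCm38.p6, the first listed for each symbol, 59 of 68 members matched). RPKM was computed from the counts and exon unions. Counts of replicates differed by more than counting noise (chi-square per degree of freedom 2.06 to 2.61), so none was treated as a library deposited again, which does not show separate cultures. The fits were tested beforehand on simulated counts, with planted changes larger than the member fold changes of the 4 comparisons. This does not show how smaller changes fare.

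Other settings tried were the Wald test of DESeq2 1.42.0, RLE size factors, library totals without TMM, Rn45s left out, no filter, a minimum count of 20, the replicate number as a block, one fit of all 12 libraries, and each library left out in turn.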

Additional observations from a re-analysis of the deposited data

How the results depend on the processing

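The number of members past an adjusted p of 0.05 rested on few libraries. In silencing it was 1, but 0 in one fit of 12 libraries, and 0 to 1 with each library left out. In activation it was 0 under all 14 alternatives. Between the controls it was 2, but 1 under DESeq2 and 1 without a filter, there Prpf39 and neither Srsf11 nor Hnrnpdl, and 1 (Srsf11) with a minimum count of 20 or with the replicate block, and 0 to 2 with each library left out. Between the treated groups it was 5, but 2 under DESeq2 and 3 without a filter, and 3 to 4 with each library left out. Over all genes the calls there were 557 of 2702, but 558 of 13092 under DESeq2 and 557 of 13092 without a filter. Between the controls they were 415 of 2459, but 393 of 13222 under DESeq2 and 416 of 13222 without a filter. The members called between the treated groups without a filter, and those called without S45Y library 3, included Srsf4, not called otherwise, and Prpf40b joined with a minimum count of 20. The number of members at an unadjusted p below 0.05 moved too. With each library left out it was 1 to 6 in silencing and 0 to 2 in activation. Between the controls it was 2 to 7, and between the treated groups 4 to 7. The median log2 fold change of the members between the controls was 0.13, but -0.16 without a filter, where the median of all genes was -0.13, and -0.0093 to 0.16 with each library left out. Between the treated groups it was 0.09, but -0.14 without a filter, where that of all genes was -0.18, and 0.19 with a minimum count of 20. DESeq2 moved the median of all genes to 0.22 between the controls and 0.24 between the treated groups. Those of the members were 0.10 and 0.06 there, so the members lay below all genes and not above them. None of the 17 single-member fold changes recomputed here reversed its sign under the alternatives run. Same-numbered libraries did not deviate together (correlations from -0.05 to 0.03), so the numbers were not taken as pairs. With the replicate block, silencing kept 1 called member, Prpf39 (adjusted p = 0.0183), activation 0 and the treated groups 5, while between the controls the call of Hnrnpdl was lost (0.0631). The 15 members with 20 counts or fewer over all libraries were below the filter in the 4 comparisons as reported, and the plasmid libraries hold fewer counts than any siRNA library.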
